A study of Mus musculus with 12 samples.

Results

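The 35 genes described here encode the enzymes and transporters of glycolysis, the enzymes that set its direction, and a group of genes that low oxygen induces. They were named without a cut on their values, but with earlier results of these data known. A gene was measured where the annotation paired a probe set with its symbol alone, and it was represented by the probe set with the highest mean over the 12 arrays. This gave 32 of the 35 genes. Gapdh appeared only on 3 probe sets that name several genes, and no probe set was listed with the symbol Gpi1 or Eno1, so these 3 genes were not analysed here. Adm, the vasodilator adrenomedullin, lay below the filter level of 16 intensity units on every array. The other 31 were tested among 10817 genes.

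RNA was hybridised from leukaemic cells of 4 groups with 3 arrays each. Donor haematopoietic stem and progenitor cells were infected with oncogenes and transplanted. The donors were wild-type, or they carried a gene trap in both copies of Msi2 (Gt/Gt). MLL-AF9 gave acute myeloid leukaemia (AML), and BCR-ABL with NUP98-HOXA9 gave blast-crisis chronic myeloid leukaemia (bcCML). The AML cells were sorted as Lin- Sca1- Kit+ and the bcCML cells as Lin- only, so leukaemia and sorting gate cannot be told apart. All samples, wild-type ones included, carry the strain name B6;CB-Msi2Gt(pU-21T)2Imeg in the labels, none was treated, and ages are not given in the sources used here. The titles call the samples biological replicates without naming separate animals, so p-values measure the spread between these samples only.

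Glycolysis splits glucose into pyruvate. Glucose enters through transporters of the Slc2a family and is trapped by hexokinases, and the phosphofructokinase step commits it to breakdown. Pyruvate is then either reduced to lactate by lactate dehydrogenase and exported, or passed to mitochondria unless pyruvate dehydrogenase kinases close that route. Many of these steps have several isozymes that differ in tissue and in affinity. When oxygen falls, prolyl hydroxylases (Egln genes) stop marking the factor Hif1a for degradation, and it binds the core words ACGTG or GCGTG near its target genes, many of which are glycolytic.

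The stretches before the start of 5 genes that were called between the leukaemias are shown, because they carry these words to different extents. Sequences are from RefSeq (GRCm38.p6), on the strand of the gene, and the capitals mark each match to ACGTG or GCGTG on either strand. The first is a 30-base stretch that ends 30 bases before 1 of the 2 starts of Ldha. That start had 5 matches in its 250 bases, and the other start had 1. The stretch was cut to end with a match, so it is not comparable with the full windows. The others are the 250 bases before the start of Ldhb, Slc16a1, Pdk3 and Egln3.
Ldha, chr7:46845745-46845774, + strand: ggcccagcctaCACGTGggttcccgCACGT
Ldhb, chr6:142507958-142508207, - strand: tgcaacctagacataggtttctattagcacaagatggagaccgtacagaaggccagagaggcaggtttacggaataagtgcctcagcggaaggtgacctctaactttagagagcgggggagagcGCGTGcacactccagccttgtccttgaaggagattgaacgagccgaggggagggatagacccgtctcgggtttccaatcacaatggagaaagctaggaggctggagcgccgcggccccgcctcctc
Slc16a1, chr3:104638414-104638663, + strand: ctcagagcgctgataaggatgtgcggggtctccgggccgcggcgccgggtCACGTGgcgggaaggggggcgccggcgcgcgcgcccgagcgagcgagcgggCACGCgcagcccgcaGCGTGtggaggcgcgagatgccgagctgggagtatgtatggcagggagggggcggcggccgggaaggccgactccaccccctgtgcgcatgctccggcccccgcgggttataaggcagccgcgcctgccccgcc
Pdk3, chrX:93832151-93832400, - strand: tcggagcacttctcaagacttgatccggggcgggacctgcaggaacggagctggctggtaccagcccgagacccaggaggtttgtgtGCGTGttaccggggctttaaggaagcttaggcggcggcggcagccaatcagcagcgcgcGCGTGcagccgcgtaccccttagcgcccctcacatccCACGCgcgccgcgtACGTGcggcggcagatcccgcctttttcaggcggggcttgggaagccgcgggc
Egln3, chr12:54203875-54204124, - strand: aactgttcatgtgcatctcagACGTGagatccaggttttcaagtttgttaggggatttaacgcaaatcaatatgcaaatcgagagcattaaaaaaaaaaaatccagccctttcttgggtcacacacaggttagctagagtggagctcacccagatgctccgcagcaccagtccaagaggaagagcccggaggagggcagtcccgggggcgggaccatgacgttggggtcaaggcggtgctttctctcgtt

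Of the 35 genes, 33 had an entry in the RefSeq promoter table, and Ndrg1 and Slc2a3 had none. A core word lay in the 250 bases before a start in 29 of the 33 (87.9%). The share was 41.5% over all 27025 genes of the table and 47.1% over its 17492 protein-coding genes. The palindrome CACGTG, which holds ACGTG on both strands and is also the E-box word, lay in 6 of the 33 (18.2%) and in 6.86% of all genes. The Slc16a1 and Pdk3 windows held 4 matches each, and those of Ldhb and Egln3 held 1 each. A match describes these letters only and is no evidence of a bound site.

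Median intensity ran from 13.1 to 13.8 units per array, and 48.4% to 48.8% of probe sets exceeded 16 units. Msi2 itself checked the labels, falling from 312.4 ± 125.0 units (SD, n = 3) to 69.6 ± 17.0 in AML and from 3827 ± 1085 to 605.3 ± 116.9 in bcCML. Kit, Cd34 and Flt3 exceeded 16 units on all arrays of every group, whereas Sca1 (Ly6a) was not analysed here. Among AML samples, mutant array 1 stood apart. It scored -58.2 on the second principal component, against 1.20 to 20.0 for the other 5 AML arrays. Its summed monocyte and macrophage marker intensity was 11457, against 22706 to 29720.2 in wild-type AML. Mutant AML arrays 2 and 3 lay above that range, at 51363.5 and 35671.4. Results that change without it are given both ways.

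Levels of the 31 genes differed in how much they varied between the groups. Aldoa (aldolase), Pgk1 (phosphoglycerate kinase), Tpi1 (triosephosphate isomerase) and Hif1a stayed within a narrow span. Aldoa, for example, averaged 16172 ± 796, 16155 ± 1416, 14903 ± 773 and 15176 ± 1165 units (SD, n = 3) in wild-type AML, mutant AML, wild-type bcCML and mutant bcCML. In that order Pgk1 averaged 8001, 7799, 9254 and 9055 units. Other genes crossed the filter level between the groups. Ldhb and Pfkfb4 exceeded 16 units on all 6 AML arrays and on 0 of 6 bcCML arrays, so they passed the filter through AML alone. Eno2 did so on 6 bcCML arrays and 1 AML array. For such genes a difference between the leukaemias was in part built into the filter. Adm stayed below it everywhere.

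**Figure D1:**
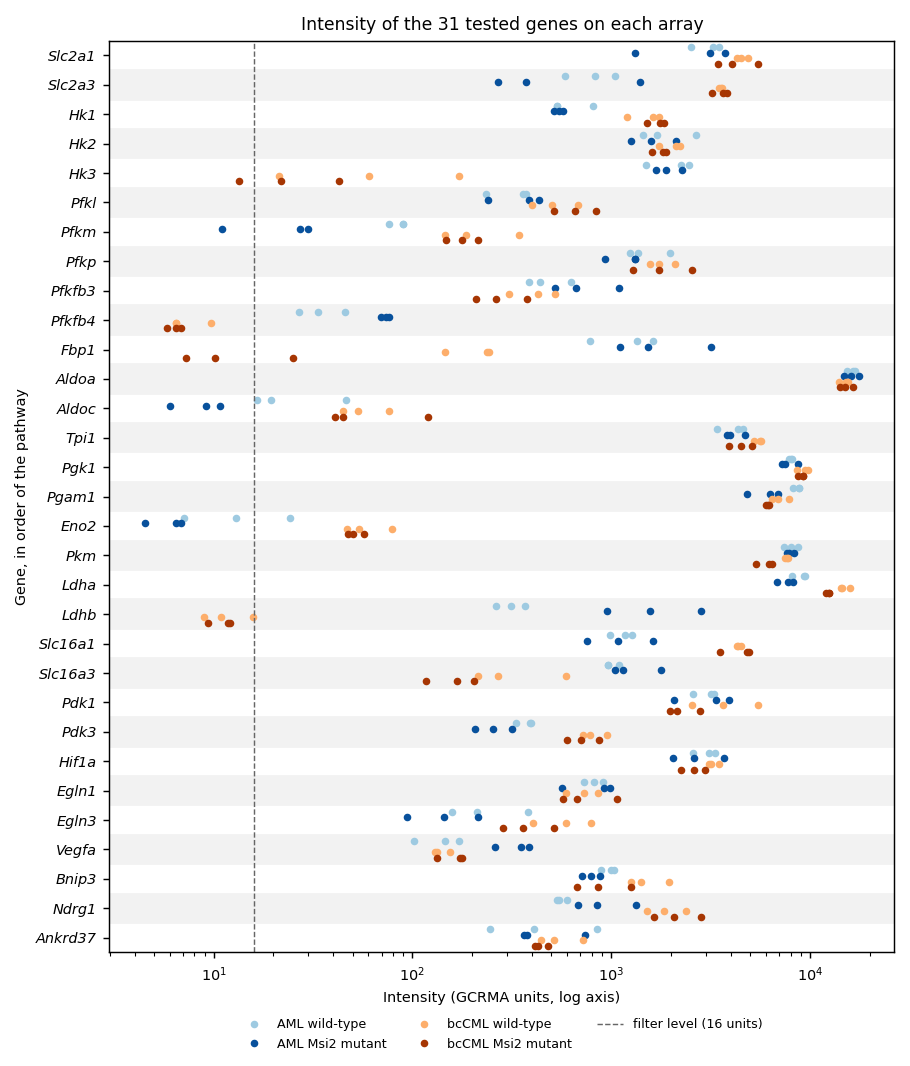
Intensity of the 31 tested genes on each of the 12 arrays (log axis, GCRMA units), with genes in the order of the pathway, 1 point per array coloured by group, and a dashed line at the filter level of 16 units. Aldoa, Pgk1 and Hif1a keep a narrow span over all arrays, whereas Ldhb and Pfkfb4 lie above the line on the 6 AML arrays and below it on the 6 bcCML arrays.

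Between the wild-type leukaemias, Ldhb, Hk3, Fbp1, Pfkfb4 and Slc16a3 were lower in bcCML, and Slc16a1, Hk1, Slc2a3, Ldha, Pdk3, Pfkm, Eno2, Ndrg1 and Egln3 were higher. These are 14 of 31 genes (45.2%) by limma with Benjamini-Hochberg adjustment over all genes, where 36.9% of all 10817 genes were called. The 9 higher and 5 lower genes stand beside 17.7% and 19.3% of all genes. Arrays did not overlap for 14 genes that were higher and 6 that were lower in bcCML, beside 25.6% and 26.8% of all genes. The median log2 difference was 0.30, against 0.00 over all genes. In bulk samples a lower share of cells that express a gene and less RNA per cell cannot be told apart. Values below are in the order of replicates 1 to 3.

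At glucose entry, the transporter Slc2a3 (Glut3) measured 829, 584 and 1046 units on the wild-type AML arrays and 3499, 3565 and 3619 on the wild-type bcCML arrays. The groups did not overlap, and Slc2a3 was higher in bcCML by a log2 difference of 2.16 ± 0.49 (SE), 4.47-fold (limma adjusted p = 0.00651). The main ubiquitous transporter, Slc2a1 (Glut1), averaged 3093 ± 514 and 4567 ± 309.6 units, a log2 difference of 0.57 that was not called (95% interval -0.19 to 1.34, limma adjusted p = 0.221). Without mutant AML array 1, which enters here only through the shared spread, Slc2a1 was called at the same difference (limma adjusted p = 0.0417).

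Of the hexokinases, which phosphorylate glucose, Hk1 was higher in bcCML, Hk3 was lower and Hk2 was not called. Hk1, the housekeeping form bound to mitochondria, measured 534, 813 and 537 units in wild-type AML and 1198, 1621 and 1746 in wild-type bcCML. It was 2.44-fold higher in bcCML, at a log2 difference of 1.29 ± 0.20 (SE) and a limma adjusted p of 0.000681. Hk3, a form known from myeloid cells, measured 2241, 2475 and 1492 units in AML and 60.4, 171 and 21.3 in bcCML. Its 3 bcCML arrays spread widely, yet every one of them lay far below every AML array. The log2 difference was -5.07 ± 0.65 (SE), 33.5-fold lower in bcCML (limma adjusted p = 0.000197). Hk2, the inducible form, averaged 1942 ± 650.3 and 2019 ± 255 units and was not called (95% interval of the log2 difference -0.46 to 0.66).

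At the phosphofructokinase step, Pfkm, the muscle-type subunit, measured 76.7, 89.5 and 89.8 units in wild-type AML and 343, 145 and 185 in wild-type bcCML. Its arrays did not overlap and it was 2.47-fold higher in bcCML (limma adjusted p = 0.0267). Pfkl and Pfkp, the liver-type and platelet-type subunits, were not called, at log2 differences of 0.71 and 0.25. Pfkfb4, a bifunctional enzyme that makes and breaks down an activator of phosphofructokinase, measured 26.8, 45.6 and 33.4 units in AML and 9.65, 6.45 and 6.46 in bcCML. All 3 bcCML arrays lay below the filter level, so it was at least 2.15-fold lower there (limma adjusted p = 2.88e-05). The related Pfkfb3 averaged 484 ± 129 and 418 ± 108 units and was not called.

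Fbp1, the fructose bisphosphatase that runs this step backwards in gluconeogenesis, measured 1354, 779.5 and 1628 units in wild-type AML and 146, 242 and 237 in wild-type bcCML. Every bcCML array was below every AML array, a 5.90-fold lower level at a log2 difference of -2.56 ± 0.51 (SE, limma adjusted p = 0.00314). Further down the pathway, Eno2, the neuronal-type enolase, was called. It measured 7.06, 12.9 and 24.2 units in AML and 53.8, 79.3 and 46.7 in bcCML, and no size is given because the AML mean lay under the filter level (limma adjusted p = 0.00161). The aldolases, Tpi1, Pgk1, Pgam1 (phosphoglycerate mutase) and Pkm (pyruvate kinase) did not pass the test with their brightest probe sets. Of 3 probe sets each, the other 2 of Pgk1 were called higher (log2 differences 0.51 and 0.38, limma adjusted p = 0.0393 and 0.0352), as was 1 of Tpi1 (0.42, limma adjusted p = 0.0483). Of the brightest probe sets, that of Aldoc had the largest log2 difference, 1.20 (limma adjusted p = 0.0771), and that of Tpi1 the smallest adjusted p, 0.0589 by limma. Without mutant AML array 1, Tpi1 was called, at an unchanged log2 difference of 0.43 (limma adjusted p = 0.0481).

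At the end of the pathway, Ldha, the subunit that favours lactate formation, measured 9381, 9423 and 8101 units in wild-type AML and 15970.1, 14536 and 14351 in wild-type bcCML. It was 1.67-fold higher in bcCML without overlap (log2 difference 0.74 ± 0.12 SE, limma adjusted p = 0.00108). Ldhb, the subunit that favours the return of lactate to pyruvate, measured 368, 265 and 314 units in AML and 10.9, 8.96 and 15.9 in bcCML. All bcCML arrays were below the filter level, so Ldhb was at least 19.5-fold lower there (limma adjusted p = 4.29e-06). Its window printed above holds 1 core word, as does that of Egln3, which was higher in bcCML.

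The lactate carriers moved in opposite directions as well. Slc16a1 (Mct1), which carries lactate both ways, measured 1279, 1177 and 991 units in AML and 4295, 4329 and 4516 in bcCML, 3.83-fold higher in bcCML (log2 difference 1.94 ± 0.25 SE, limma adjusted p = 0.000228). Slc16a3 (Mct4), an exporter of lactate-forming cells, measured 961, 962 and 1099 units in AML and 593, 269 and 215 in bcCML, 3.10-fold lower in bcCML (limma adjusted p = 0.0059). Neither gene overlapped between the leukaemias. Of the kinases that switch off pyruvate dehydrogenase, Pdk3 measured 333, 395 and 391 units in AML and 951, 725 and 787 in bcCML, 2.19-fold higher (limma adjusted p = 0.00141). Pdk1 averaged 3026 ± 389 and 3897 ± 1488 units and was not called.

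Of the genes that low oxygen induces, Ndrg1, a stress and differentiation gene, measured 599, 536 and 549 units in wild-type AML and 1840.5, 1510.3 and 2378 in wild-type bcCML. It was 3.35-fold higher in bcCML without overlap (limma adjusted p = 0.000789). Egln3, the prolyl hydroxylase that hypoxia itself induces, measured 211, 379.9 and 159 units in AML and 595, 793 and 405 in bcCML, again without overlap (2.47-fold, limma adjusted p = 0.0292). The other genes of this group that did not pass were Hif1a, Egln1 (the main oxygen-sensing hydroxylase), Vegfa (a vessel growth factor), Bnip3 (a mitophagy receptor) and Ankrd37. Bnip3 had the largest of their log2 differences, 0.63 (limma adjusted p = 0.0595). Hif1a averaged 2999 ± 378 and 3266 ± 198 units, with a 95% interval of the log2 difference of -0.34 to 0.60.

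Among the Msi2 mutant leukaemias the same comparison called 19 of 31 genes (61.3%), beside 45.1% of all genes. Of these, 11 were higher in bcCML (23.2% of all genes) and 8 lower (21.9%), and the median log2 difference was 0.13, against 0.03 over all genes. The wild-type and mutant comparisons use different arrays but share 1 estimate of spread per gene. All 14 genes called between the wild-type leukaemias were called in the same direction between the mutant ones, which is 100% of the first list and 73.7% of the second. Over all genes the shares were 83.2% and 68.2%. Arrays did not overlap for 12 genes that were higher and 8 that were lower, beside 29% and 26.5% of all genes. The other 5 calls in the mutants were Aldoc and Pfkl, higher in bcCML, and Vegfa, Pfkfb3 and Pkm, lower. The 2 further probe sets of Pgk1 were called higher here too (limma adjusted p = 0.0311 and 0.0153), the brightest was not.

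In the mutants, Ldhb measured 2844, 1568 and 955 units in AML against 12.1, 9.38 and 11.8 in bcCML, at least 101-fold lower (limma adjusted p = 1.66e-07). Fbp1 measured 3167, 1109 and 1536 units in AML against 7.26, 10.2 and 25.2 in bcCML, with no size given because the bcCML mean lay under the filter level (limma adjusted p = 2.56e-06). Hk3 measured 1881, 1675 and 2275 units in AML against 21.9, 42.7 and 13.3 in bcCML, 83.1-fold lower (limma adjusted p = 3.07e-05). These 3 genes kept their mutant bcCML arrays entirely below their mutant AML arrays, as they did in wild-type cells. Pfkfb4 measured 76.5, 73.4 and 69.6 units in AML against 6.86, 5.85 and 6.46 in bcCML, at least 4.57-fold lower. Slc16a3 measured 1039.9, 1792 and 1150.3 units in AML against 117, 169 and 205 in bcCML, 8.09-fold lower. Neither overlapped.

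The 3 genes called lower in mutant bcCML alone were not called between the wild-type leukaemias, and the difference of the 2 comparisons was itself not significant for any gene. Vegfa measured 352, 259.8 and 387 units in AML against 173, 133 and 177 in bcCML (limma adjusted p = 0.00379). Pfkfb3, the other bifunctional enzyme, measured 1094, 519.5 and 664 units against 209, 379 and 263 (limma adjusted p = 0.00671). Pkm measured 8288, 7825 and 7689.6 units against 5352, 6219 and 6416 (limma adjusted p = 0.0199). In each of them every bcCML array lay below every AML array.

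Of the genes higher in mutant bcCML, Pfkm measured 29.9, 27.3 and 11.0 units in AML against 147, 179 and 214 in bcCML, 8.56-fold higher (limma adjusted p = 0.000147). Slc2a3 measured 1403, 269.7 and 374 units against 3217, 3657 and 3847, 6.84-fold higher. Among its AML arrays, array 1 stood closest to bcCML, and without that array the log2 difference went from 2.77 to 3.49. Slc16a1 measured 757, 1076 and 1629 units against 4842, 4929.8 and 3512, 3.98-fold higher. Hk1 was 3.13-fold higher, at 571, 517 and 545 units against 1847, 1759 and 1517. None of these genes overlapped between the leukaemias.

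Pdk3 was 2.81-fold higher in mutant bcCML, at 317, 253 and 208 units in AML against 603, 705 and 873 in bcCML. Ndrg1 was 2.31-fold higher, at 1336, 849.8 and 682 units against 2821, 1642 and 2070.2. Ldha was 1.63-fold higher, at 7739, 8183 and 6828 units against 12026, 12502 and 12492. Aldoc, the brain-type aldolase, and Eno2 lay under the filter level on all 3 mutant AML arrays. Aldoc measured 9.11, 10.8 and 6.00 units in AML against 40.6, 45.0 and 119.6 in bcCML, at least 3.76-fold higher. Eno2 measured 6.47, 4.52 and 6.88 units against 50.0, 47.5 and 56.9, at least 3.21-fold higher. The remaining calls were Pfkl, the liver-type subunit, and Egln3. Pfkl measured 241, 434 and 387 units against 516, 658 and 835 (limma adjusted p = 0.0273). Egln3 measured 93.8, 145 and 215 units against 287, 516 and 360.2 (limma adjusted p = 0.0178), and neither gene overlapped.

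**Figure D2:**
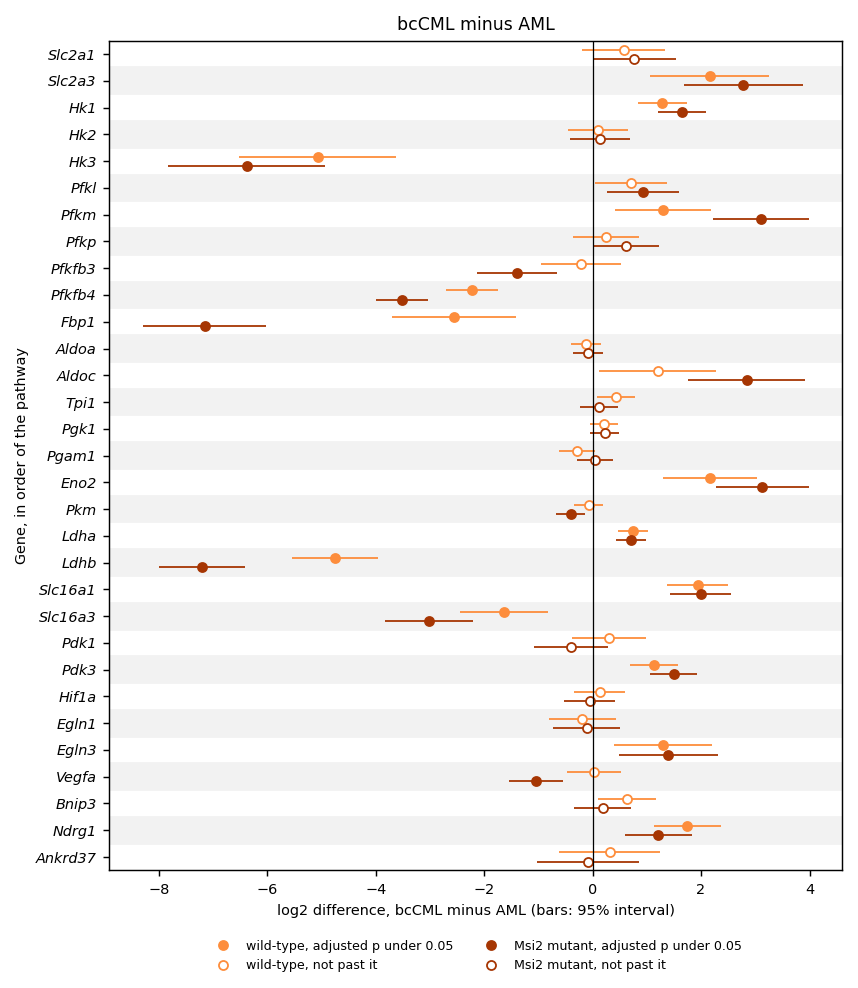
Log2 difference, bcCML minus AML, of the 31 genes in wild-type (light) and Msi2 mutant (dark) leukaemias, with 95% intervals as bars and filled points for a limma adjusted p under 0.05. Ldhb, Hk3, Fbp1, Pfkfb4 and Slc16a3 lie left of 0 in both genotypes, and Slc16a1, Hk1, Slc2a3, Pdk3 and Eno2 lie right of 0 in both.

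Several of these calls rested on few arrays. Between the wild-type leukaemias, the call of Pfkm ended without any 1 of wild-type AML arrays 1, 2 and 3 and wild-type bcCML arrays 1 and 3 (adjusted p up to 0.0960 by limma), and that of Egln3 without any 1 of wild-type AML arrays 1 and 3 and wild-type bcCML arrays 1 and 2 (up to 0.0996). Between the mutant leukaemias, calls ended for Egln3 without mutant AML array 1 (0.0623 by limma) or mutant bcCML array 2 (0.0684), for Pfkl without mutant AML array 1 or mutant bcCML arrays 2 or 3 (up to 0.0991), and for Pkm without mutant bcCML array 1 (0.0742). The other calls, 12 between the wild-type and 16 between the mutant leukaemias, held without any single array. With no filter on low values, which adds genes to the test, Pfkm and Egln3 between the wild-type and Pfkl between the mutant leukaemias lost their calls (limma adjusted p = 0.0644, 0.0700 and 0.0590), and Pfkl did so with the mean of its probe sets (0.119), of which the third ran the other way at -0.34 on the log2 scale.

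Markers of other blood cells moved with the same comparison, and their part in these results was not tested. The summed intensity of 8 measured monocyte and macrophage genes was 22706 to 29720.2 units in wild-type AML and 1206 to 1841 in wild-type bcCML, where the macrophage receptor Csf1r averaged 4.73 units, at the floor of the array. The 11 measured neutrophil genes summed to 117050.0 to 168490.0 and 11195 to 34641 units. Within this list Mpo averaged 8224 and 7567 units, and the arrays overlapped for Mpo and Ctsg. Summed erythroid genes were higher in bcCML, with 7 measured genes at 2786 to 3827 and 7876 to 11557 units. Most of this sum was Tfrc, at 3193 and 6885 units on average, which is also among the hypoxia-induced genes read below. Of the 7, 1 exceeded 16 units on every wild-type AML array and 5 on every wild-type bcCML array. The red-cell factor Klf1 averaged 10.3 and 435 units, Alas2 4.52 and 15.6, and Hba-a1 stayed at 4.51 and 4.50. The 5 measured megakaryocyte genes summed to 29.4 to 41.1 and 3852 to 8498 units. Mast cell and basophil genes summed to 1058 to 2181 and 3618 to 10217 units. T and NK cell genes, nearly all of it Nkg7, summed to 1553 to 5149 and 7648 to 8943 units. B cell genes were lower in bcCML, at 964.7 to 2227 and 64.15 to 96.5 units.

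Isozymes of the same step were then set against each other within each array, as a log2 ratio of their intensities. Levels of different probe sets are not comparable, so only the change of the ratio between groups was used. Such a change shows that the isozymes changed unequally, not that either stayed constant. Of 13 pairs, 12 changed between bcCML and AML over both genotypes (two-sided exact permutation test within genotype, 400 arrangements, Benjamini-Hochberg adjusted over 13 pairs). The smallest p that 400 arrangements allow is 0.005, and 9 pairs reached it, with an adjusted p of 0.00722. Each of the 13 pairs holds a gene called above in wild-type or mutant cells, so these tests are not separate evidence. Ldhb and Pfkfb4 passed the filter through AML alone, so the change of their ratios was in part built in. No share was computed for pairs of other genes, and 36.9% and 45.1% of all genes were called between the wild-type and mutant leukaemias. The count of 12 is therefore not read as particular to isozymes.

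The ratio of Hk1 to Hk3 was higher in bcCML by 7.19 on the log2 scale, with 6.35 in wild-type and 8.02 in mutant cells. Ldha to Ldhb was higher by 6.70, with 5.50 and 7.91. The size for this pair and for Pfkfb3 to Pfkfb4 (2.07) is held down by the floor in bcCML, and that for Aldoa to Aldoc by Aldoc under the filter level on all 3 mutant AML arrays. For the lactate carriers, Slc16a1 to Slc16a3 rose by 4.29, with 3.57 and 5.01. Hk1 to Hk2 rose by 1.35, Hk2 to Hk3 by 5.84 and Pfkm to Pfkp by 1.77. In the other direction, Pdk1 to Pdk3 changed by -1.36 and the hydroxylases Egln1 to Egln3 by -1.50, both toward the second isozyme in bcCML. Aldoa to Aldoc changed by -2.13, the glucose transporters Slc2a1 to Slc2a3 by -1.79 and Pfkl to Pfkm by -1.38, with exact permutation p adjusted to 0.013, 0.0236 and 0.0325. Pfkl to Pfkp did not pass, at 0.39 (adjusted exact permutation p = 0.17).

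Slc2a1 to Slc2a3 lost its call without any 1 of the mutant bcCML arrays (adjusted exact permutation p = 0.0704). Against the wild-type AML mean, this ratio stood at -2.04, 1.84 and 1.12 on mutant AML arrays 1 to 3, so that array 1 alone lay at the level of the bcCML arrays, which ran from -2.02 to -1.44. Without it the change between the leukaemias was -2.38. Pfkl to Pfkm held its call in 8 of 12 fits with 1 array left out and lost it on a log2(value + 16) scale (adjusted exact permutation p = 0.0542). Between Msi2 mutant and wild-type cells, tested within leukaemia, 0 of the 13 pairs passed. For 4 pairs the exact permutation p was under 0.05 before adjustment, from 0.02 to 0.035, and 0.114 after it. These were Ldha to Ldhb (-1.41), Pfkl to Pfkm (1.37), Pfkm to Pfkp (-0.96) and Egln1 to Egln3 (0.67).

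**Figure D3:**
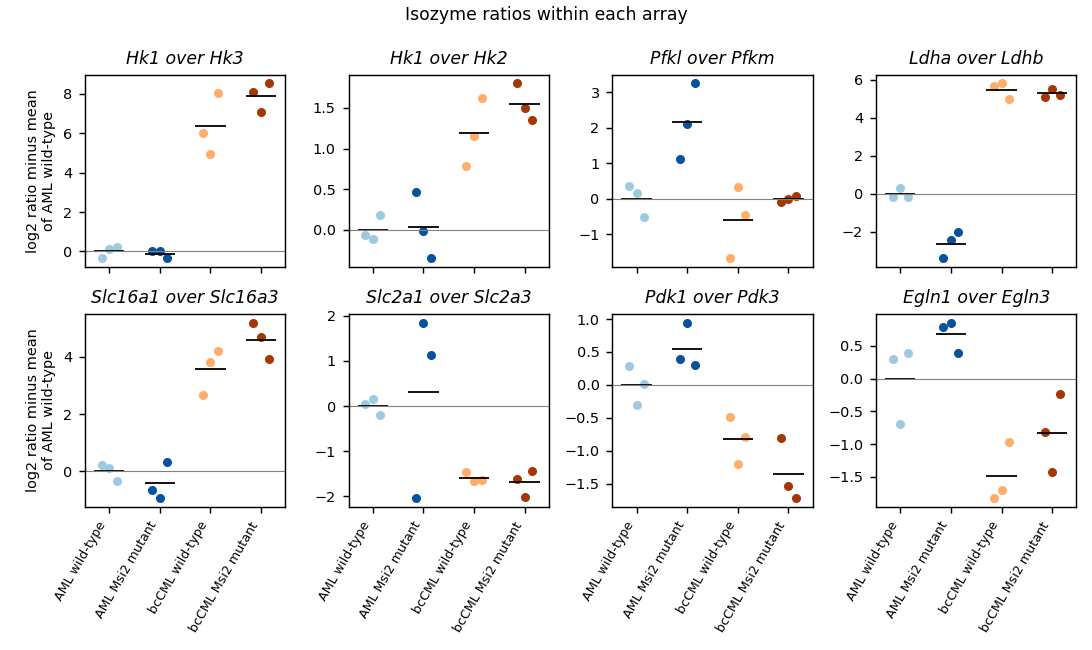
Log2 ratio of 8 isozyme pairs within each array, minus the mean of the wild-type AML arrays, by group, with 1 point per array and a line at the group mean. The ratios of Hk1 to Hk3, Ldha to Ldhb and Slc16a1 to Slc16a3 lie higher on every bcCML array than on any AML array, while mutant AML array 1 lies apart for Slc2a1 to Slc2a3.

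Loss of Msi2 in AML went with a higher level of Ldhb, Vegfa and Pfkfb4 and a lower level of Pfkm. These are 4 of 31 genes (12.9%), where 1.52% of all genes were called, with 3 higher (0.379% of all genes) and 1 lower (1.14%). The median log2 difference was -0.06, against -0.05 over all genes. The values below compare mutant with wild-type AML cells.

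Ldhb measured 368, 265 and 314 units on the wild-type arrays and 2844, 1568 and 955 on the mutant arrays. Every mutant array exceeded every wild-type array, and mutant array 1 was the highest. The log2 difference was 2.37 ± 0.36 (SE), 5.18-fold (limma adjusted p = 0.0146). Ldha, its partner in the enzyme, averaged 8969 ± 751 and 7583 ± 691 units and was not called (95% interval of the log2 difference -0.52 to 0.03).

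Vegfa measured 146, 171 and 101 units on the wild-type and 352, 259.8 and 387 on the mutant arrays, without overlap, 2.41-fold higher (log2 difference 1.27 ± 0.23 SE, limma adjusted p = 0.0281). Its other probe set that passed the filter also had a higher mean in the mutants. Pfkfb4 measured 26.8, 45.6 and 33.4 units in wild-type and 76.5, 73.4 and 69.6 in mutant cells, 2.12-fold higher (log2 difference 1.09 ± 0.22 SE, limma adjusted p = 0.0403). The 3 mutant arrays were close together and all above the wild-type ones. Pfkm measured 76.7, 89.5 and 89.8 units in wild-type and 29.9, 27.3 and 11.0 in mutant cells, 4.09-fold lower (log2 difference -2.03 ± 0.40 SE, limma adjusted p = 0.0395). Mutant array 3 lay below the filter level, and the groups did not overlap.

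Another 6 genes had mutant arrays wholly on one side of the wild-type arrays without passing the test. Ndrg1 lay higher, at a log2 difference of 0.71 (limma adjusted p = 0.275). The other 5 lay lower, among them Pgam1 at -0.54 (0.122 by limma), Pdk3 at -0.54 (0.241) and Aldoc, at least 1.54-fold (0.171). In all, 4 genes lay higher without overlap and 6 lower, beside 5.18% and 11.6% of all genes.

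The 4 calls in AML rested on the spread shared by all 12 arrays, and all 4 ended in a fit of the 6 AML arrays alone (limma adjusted p from 0.167 for Ldhb to 0.204 for Vegfa and Pfkm). With all arrays but 1, Ldhb held in 11 of 12 fits and ended without wild-type AML array 1 (0.0548 by limma), Vegfa held in 7, Pfkm in 3 and Pfkfb4 in 2, with limma adjusted p up to 0.0940, 0.119 and 0.152. Vegfa ended without any 1 of wild-type AML arrays 1 and 3, mutant AML arrays 1 and 3 and wild-type bcCML array 3. Pfkm held only without mutant AML array 1 or wild-type bcCML arrays 1 or 2, and Pfkfb4 only without wild-type AML array 2 or wild-type bcCML array 1. Without mutant AML array 1, the log2 difference was 1.97 for Ldhb (limma adjusted p = 0.015), 1.22 for Vegfa (0.0577), 1.05 for Pfkfb4 (0.0786) and -2.30 for Pfkm (0.0346), and Slc2a3 was also called, at -1.33 (0.0325). The mean of Vegfa's probe sets was not called (0.0924). Markers differed between these groups too, with Cd34 at 1235 and 171 units, Flt3 at 488 and 68.6, and summed neutrophil genes at 117050.0 to 168490.0 and 198646 to 231725. Kit went the other way, at 232 units in wild-type and 307 in mutant cells. Arrays overlapped for Cd34 and Kit but not for Flt3. Summed monocyte and macrophage genes ran from 22706 to 29720.2 units in wild-type and from 11457 to 51363.5 in mutant cells. Their part in these results was not tested.

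Loss of Msi2 in bcCML called Fbp1, which was lower, and no other gene of the 31. This is 1 of 31 genes (3.23%), where 0.139% of all genes were called, 0.037% higher and 0.102% lower. Fbp1 measured 146, 242 and 237 units on the wild-type and 7.26, 10.2 and 25.2 on the mutant arrays, a mean of 208 ± 54.2 against 14.2 ± 9.61 (SD, n = 3, limma adjusted p = 0.0185). Every mutant array was below every wild-type array, and 2 of 3 were under the filter level, so no fold is given. In AML, Fbp1 measured 1354, 779.5 and 1628 units in wild-type and 3167, 1109 and 1536 in mutant cells, and these groups overlapped.

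The log2 difference was below 0 for 22 of the 31 genes in bcCML, with a median of -0.19 against -0.02 over all genes. On every mutant array 7 genes lay lower and 0 higher, beside 10.1% and 5.83% of all genes. Among those not called, Pkm averaged 7648 ± 124 and 5996 ± 566 units (limma adjusted p = 0.493) and Ldha 14952 ± 886 and 12339.8 ± 272 (0.599 by limma). Slc16a3 averaged 359 ± 205 and 164 ± 44.3 units (0.527 by limma). The call of Fbp1 ended without any 1 of wild-type bcCML arrays 2 and 3 and mutant bcCML arrays 1 and 2 (limma adjusted p up to 0.0831), in a fit of the 6 bcCML arrays alone (0.194) and with no filter on low values (0.0656). Markers differed between these groups as well. The neutrophil gene Ngp averaged 478 units in wild-type and 76.9 in mutant bcCML, Elane 1352 and 315, and the progenitor receptor Flt3 433 and 167. Arrays did not overlap for Ngp and Flt3. The neutrophil gene Camp went the other way, at 43.6 and 60.8 units, as did Ltf and Mmp9, whose means lay under the filter level. Summed monocyte and macrophage genes were higher in the mutants without overlap, at 1206 to 1841 and 1978 to 2176 units, although Adgre1 averaged 310 and 195. The summed neutrophil genes were at 11195 to 34641 and 3865 to 16392 units, which overlap, and the part of these markers in the result was not tested.

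**Figure D4:**
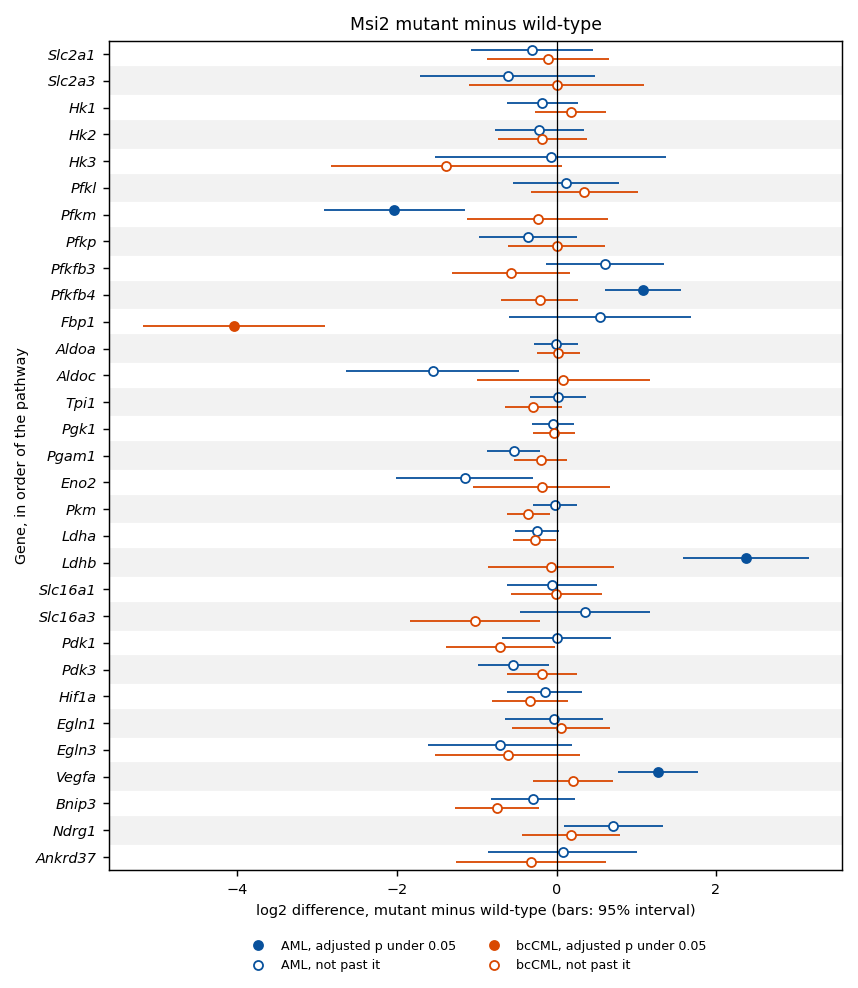
Log2 difference, Msi2 mutant minus wild-type, of the 31 genes in AML (blue) and bcCML (orange), with 95% intervals as bars and filled points for a limma adjusted p under 0.05. Ldhb, Vegfa, Pfkfb4 and Pfkm are filled in AML and Fbp1 in bcCML.

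Whether loss of Msi2 acted alike in both leukaemias was tested as a shared effect and as the difference of the effects. None of the 31 genes passed for the shared effect, where 0.471% of all genes were called (0.102% higher and 0.37% lower). An unadjusted limma p under 0.05 was found for 12 of the 31, and for 1477 of the 10817 genes. Fbp1 had the smallest p, at -1.75 ± 0.36 (SE, limma adjusted p = 0.0704), with Vegfa at 0.73 (0.0813 by limma) and Ldhb at 1.15 (0.0843). The effects on Fbp1 had opposite signs, 0.55 in AML and -4.05 in bcCML, so its mean describes no common effect. The chosen probe set of Ldhb lay under the filter level in bcCML (-0.07), so its mean is not read as a common effect either. The other probe sets of Ldhb had log2 differences of 1.09, 0.19 and 0.03 in bcCML, and none was called. Without mutant AML array 1, Fbp1 passed (0.0432 by limma). For the difference of the effects, bcCML minus AML, 0 of 31 passed, as did 0 of all genes by limma, and 8 of the 31 had an unadjusted p under 0.05, as did 1014 of the 10817 genes. Fbp1 had the smallest p again, at -4.60 ± 0.73 (SE, limma adjusted p = 0.0613), followed by Ldhb at -2.45 ± 0.50 (SE, 0.138 by limma). So the effects on these genes are not shown to differ between the leukaemias. In bcCML, the chosen probe sets of Ldhb and Pfkfb4 lay under the filter level in both genotypes, where no effect of either direction could be measured well.

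**Figure D5:**
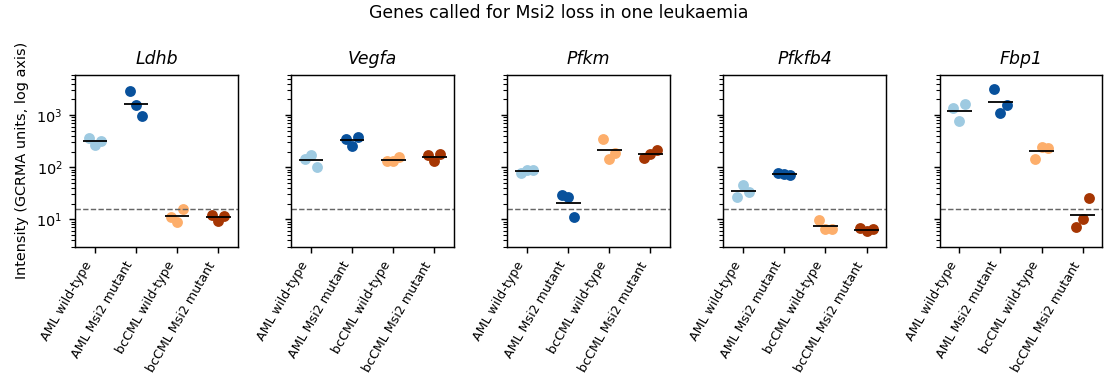
Intensity (log axis, GCRMA units) of the 5 genes called between Msi2 mutant and wild-type cells in AML or bcCML, by group, with 1 point per array, a line at the mean of the log values and a dashed line at 16 units. Ldhb, Vegfa and Pfkfb4 lie higher and Pfkm lower on the mutant AML arrays, and Fbp1 lies lower on the mutant bcCML arrays.

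Other genes of the same pathways were read from 5 lists. Their counts stand beside 17.7% of all genes called higher and 19.3% lower in wild-type bcCML, and 23.2% and 21.9% in mutant bcCML, and nothing particular to a list is read from so few genes. Of the list genes named below, Pklr and Ldhd exceeded 16 units on no AML array, and Plod1 and Pdk2 on no bcCML array, so each passed the filter through 1 leukaemia alone and its difference was in part built in. Of 18 tested glycolysis and gluconeogenesis genes beyond those above, 6 were higher and 1 lower in wild-type bcCML, and 8 higher and 4 lower in mutant bcCML. Pklr, the pyruvate kinase of liver and red cells, averaged 7.84 ± 0.24 units in wild-type AML and 735 ± 736 in wild-type bcCML (limma adjusted p = 4.34e-05). Ldhd, which oxidises D-lactate, averaged 4.57 ± 0.07 and 83.8 ± 48.3 units (limma adjusted p = 1.67e-05). Pcx, the pyruvate carboxylase that opens gluconeogenesis, averaged 15.6 ± 11.9 and 176 ± 89.8 units. Tigar, a phosphatase that diverts sugar from glycolysis to the pentose phosphate pathway, was lower in bcCML, at 1355 ± 233 and 127 ± 29.1 units (log2 difference -3.43 ± 0.48, limma adjusted p = 0.00033). Minpp1, an inositol polyphosphate phosphatase, was higher in both genotypes, at 0.75 ± 0.24 in wild-type and 1.84 ± 0.24 in mutant cells. No gene of this list was called for Msi2 in either leukaemia. The list's median log2 difference between the leukaemias was 0.43 in wild-type and 0.40 in mutant cells, against 0.00 and 0.03 over all genes. The erythroid sums given above, which are mostly Tfrc, were higher in the same samples as Pklr, and their part in it was not tested.

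Of 9 tested pentose phosphate genes, 2 were higher and 3 lower in wild-type bcCML, and 2 higher and 5 lower in mutant bcCML. The lower ones included Pgd, phosphogluconate dehydrogenase, at 12495 ± 1475 units in wild-type AML and 3363 ± 565 in wild-type bcCML (log2 difference -1.90 ± 0.19, limma adjusted p = 3.11e-05). H6pd, the dehydrogenase of the endoplasmic reticulum, had a log2 difference of -1.60 ± 0.17 and Taldo1, transaldolase, one of -0.96 ± 0.17. The median over this list was -0.34 in wild-type and -0.67 in mutant cells. Prps1 and Prps2, which make the ribose precursor of nucleotides, were higher, at 1.15 ± 0.24 and 0.98 ± 0.20. Of 10 genes of pyruvate dehydrogenase and its regulators, the kinase Pdk2 was lower in bcCML in both genotypes, and the core subunit Dlat was higher between the mutants, at 0.77 ± 0.28, with a list median of 0.05 in both genotypes. For Pdk2 the bcCML mean lay under the filter level, at 11.4 ± 4.89 units in wild-type cells against 29.9 ± 16.1 in AML.

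Of 15 tested regulators of the hypoxia factor, 3 were higher and 2 lower in wild-type bcCML, and 3 higher and 3 lower in mutant bcCML, at medians of 0.14 and 0.09. Sirt3, a mitochondrial deacetylase, averaged 967 ± 264 units in AML and 2359 ± 141 in bcCML (log2 difference 1.33 ± 0.22, limma adjusted p = 0.00109). Cited2, which competes with Hif1a for its co-activators, was higher by 0.83 ± 0.20 in wild-type cells and not called between the mutants (0.09 ± 0.20, limma adjusted p = 0.738). The co-activator Ep300 and the hydroxylase Egln2 were lower between the wild-type leukaemias, at -0.64 ± 0.14 and -0.57 ± 0.18. Hif1an, the asparagine hydroxylase, was higher in both genotypes, at 1.12 ± 0.36 and 1.44 ± 0.36. Of 29 other tested hypoxia-induced genes, 4 were higher and 11 lower in wild-type bcCML, and 6 higher and 11 lower in mutant bcCML, at medians of -0.03 and -0.49. Plod1, a collagen lysyl hydroxylase, averaged 287 ± 73.0 units in AML and 7.20 ± 3.29 in bcCML (limma adjusted p = 5.57e-07). Plin2, a lipid droplet coat protein, was lower, at a log2 difference of -2.60 ± 0.29, as was Gbe1, the glycogen branching enzyme, at -2.71 ± 0.35. Higd1a, a mitochondrial protein of hypoxia, was higher, at 1.15 ± 0.17, and Mxi1, an antagonist of Myc, was lower in both genotypes, at -1.55 ± 0.23 in wild-type and -2.38 ± 0.23 in mutant cells.

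In AML, 2 of these 29 genes were called lower in Msi2 mutant cells and 0 higher, beside 1.52% of all genes, 1.14% lower and 0.379% higher. The median log2 difference of the list was 0.24, against -0.05 over all genes, and 18 of the 29 genes lay above 0. Mif, a cytokine, averaged 7846 ± 669.7 units in wild-type and 5199.6 ± 117 in mutant cells (log2 difference -0.59 ± 0.12, limma adjusted p = 0.0472). Pgf, a growth factor of the Vegfa family, averaged 29.7 ± 10.7 and 8.68 ± 4.75 units (limma adjusted p = 0.0367), with the mutant mean under the filter level. Pgf exceeded 16 units only on the 3 wild-type AML arrays, so it passed the filter through that group and its lower call was in part built in. In bcCML none of the genes on the 5 lists was called for Msi2.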

How the data were processed

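Each of the 12 samples was hybridised to its own Affymetrix mouse array. The deposited values are linear intensity values per probe set. The authors used GCRMA, per the submitters' processing notes, and its version and settings are not given in the sources used here. This method corrects background by probe sequence, which presses dim probe sets onto a floor of 4.49 units, so changes of dim genes are only partly measured. The number of arrays limits the precision.

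Log2 was taken without a pseudocount. Probe sets above 4 on the log2 scale (16 units) on at least 3 of 12 arrays were kept, the brightest on average was taken for each gene, and this left 10817 genes. Of 45037 probe sets, 34945 had 1 symbol, 932 several and 9160 were not listed. The genes described here had 71 probe sets, 63 of which passed, and 16 genes had more than 1. Those chosen for Slc2a3, Aldoa and Ndrg1 are of a kind that can bind related transcripts.

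All 12 arrays entered a single fit of group means (limma 3.58.1, R 4.3.3, 8 residual degrees of freedom, eBayes with 2.19 prior degrees of freedom), with two-sided tests and Benjamini-Hochberg adjustment over 10817 genes at 0.05. The 6 contrasts were the Msi2 effect in each leukaemia, its mean (shared) and difference, and bcCML minus AML in each genotype. Where all 3 arrays of a group lay at or below 16 units, a bound against that level is given, and where only the mean did, levels alone. Isozyme pairs were compared by exact permutation within genotype or leukaemia. The fit was tested on simulated data. The genes, lists and comparisons were chosen with earlier results of these data known. Every array's values are given for genes called in any contrast, other genes by means or counts, and at most 4 called genes per list and contrast by smallest p.

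Correlations between replicates ran from 0.941 to 0.980. Replicate numbers recur in every group. Deviations of same-numbered mutant and wild-type bcCML arrays had correlations of 0.396, 0.364 and 0.278. Only an alternative fit with a replicate block took these arrays as pairs. Such a pairing rests on the data because the labels state none. The fits printed here carry no block, the replicate block entered as an alternative only, and the isozyme permutation tests ignore the pairing. The AML values were -0.06, -0.12 and -0.03. Promoters were searched in the 250 bases before each RefSeq start (GRCm38.p6), both strands. Alternatives were other filters, scales, normalisation, probe set means, variance models, array weights, a replicate block, the compared groups alone and each array left out.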

Additional observations from a re-analysis of the deposited data

How the results depend on the processing

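Direction was checked for called genes and pairs, and for the gene with the smallest p where no gene was called. None of these changed direction under any alternative run. Genes not called could do so, as Slc2a1 for Msi2 in AML did, from -0.30 to 0.16 without mutant AML array 1. Of 1027 values of the checked genes and pairs under the alternatives, 950 stayed on their side of the threshold, 73 lost the call and 4 gained one. The count for Msi2 in AML went from 4 to 1 with no filter on low values (more genes tested), to 0 with the compared groups only (fewer arrays) and to 1 with a replicate block, and ran from 0 to 4 with 1 array left out. In bcCML it went from 1 to 0 with no filter and with the compared groups only, from 0 to 1 with 1 array left out, and stayed at 1 with the replicate block. For the shared effect it went from 0 to 1 with a trended robust variance (Fbp1) and to 7 with array weights, and from 0 to 1 with 1 array left out (Fbp1 without mutant AML array 1, Ldhb without mutant AML array 3). For the difference of effects it went from 0 to 4 with array weights (Fbp1, Ldhb, Pfkfb4 and Pfkm) and was 0 whichever array was left out. Where not named, the cause was not tested. Between the leukaemias the count ran from 12 to 19 for wild-type cells, 13 with the replicate block, and from 17 to 20 for mutant cells, 18 with the block, and the pairs from 10 to 12. The replicate block changed no other call in bcCML, where the numbers were taken to pair the arrays from the data alone. In the other comparisons same-numbered arrays share only a number.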

Other observations

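Mutant AML array 1 also set the order of the glucose transporters. Slc2a3 measured 1403, 269.7 and 374 units and Slc2a1 1316, 3718 and 3132 on mutant AML arrays 1 to 3, so array 1 was highest for the one gene and lowest for the other. On the same array Fbp1, Ldhb, Ndrg1 and Pfkfb3 were the highest of the 3 mutant AML arrays, and Pgam1, Egln1, Egln3, Slc16a1 and Hif1a the lowest. Its summed megakaryocyte marker intensity was 211.0 units, where wild-type AML ran from 29.4 to 41.1. None of this was tested.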
